A study of Mus musculus with 8 samples.

Results

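Glutamate receptors and the auxiliary subunits that assemble with them were examined in the hippocampus of mice with a small dentate gyrus. The 41 genes were selected by symbol, a rule that uses no measured value, although earlier results of these data were known. The 41 comprise 4 AMPA receptor subunits, 7 NMDA receptor subunits, 5 kainate receptor subunits, 2 delta receptor subunits and 8 metabotropic receptors. The others are 7 *Cacng* genes, 2 cornichons, 2 Neto proteins and 4 Shisa proteins. The *Cacng* genes are grouped here as transmembrane AMPA receptor regulatory proteins (TARPs), although *Cacng6* is only TARP-related. All 41 are among the 46517 genes of the bulk RNAseq tables. The snRNAseq tables list 24051 genes and hold 40 of the 41, without *Grm6*.

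Mutants were Wls fl/-;Gfap-Cre mice and controls were Wls fl/+;Gfap-Cre mice, so that both genotypes carried the *Gfap-Cre* transgene and 1 floxed allele of *Wls*. *Wls* encodes the protein that carries Wnts to the cell surface. Cre driven by the *Gfap* promoter acts in a subset of neural progenitors, the recombined cells of the mutant have no working copy of *Wls*, and those of the control keep 1, so no group is free of Cre or of recombination. For each assay, bulk RNAseq and single nucleus (sn)RNAseq, the hippocampi of 2 mutants and 2 controls were used at 12 weeks of age, each library holding both hippocampi of 1 mouse. The bulk libraries held 59786165 and 79576196 expected counts in mutant replicates 1 and 2 and 56002381 and 66684515 in control replicates 1 and 2. The snRNAseq libraries held 5304 and 10460 mutant nuclei and 6469 and 7192 control nuclei.

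Some libraries went against their labels or stood apart from the rest. The mice are described as male, yet bulk replicate 2 carried the female transcript *Xist* (230.1 CPM in the mutant, 518 CPM in the control), which was at 1.44 and 1.05 CPM in replicate 1. The Y-linked *Ddx3y* showed the opposite, with 0.352 and 0.343 CPM in replicate 2 and 54.5 and 58.3 CPM in replicate 1. Since each genotype has 1 library of each kind, log2 ratios within a replicate number are given beside the members called in bulk. In the nuclei *Ddx3y* was at 30.7 to 55.8 CPM in all 4 libraries and *Xist* at 3.61 CPM or less, although the labels give replicate 2 of each genotype the same code in both assays. Bulk mutant replicate 2 also carried 9026 CPM of 18 choroid plexus transcripts in sum, against 1368 CPM in mutant replicate 1 and 476 and 355 CPM in the controls. Between 8 and 21 cell barcodes were shared by any pair of snRNAseq libraries.

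Fast excitatory transmission in the hippocampus is carried by AMPA receptors, which are tetramers of the GluA subunits, whereas NMDA receptors open when glutamate and depolarization coincide and pass calcium. Kainate receptors act on both sides of the synapse and are concentrated where the mossy fibres of dentate granule cells (DGCs) meet CA3 pyramidal cells. Delta receptors bind cerebellins and neurexins across the cleft, and metabotropic receptors signal through G proteins. TARPs, cornichons and Shisa proteins bind AMPA receptors and set their trafficking and gating, and Neto proteins do the same for kainate receptors.

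In the tissue as a whole, the most abundant members were a cornichon, a pair of AMPA receptor subunits, an NMDA receptor subunit and a TARP. Levels between genes are compared as TPM, which corrects for transcript length. The 5 highest in the controls were *Cnih2* (534 and 529 TPM in control replicates 1 and 2), *Gria1* (462 and 472 TPM), *Gria2* (369 and 423 TPM), *Grin1* (316 and 306 TPM) and *Cacng8* (177 and 174 TPM). *Cnih2* encodes a cornichon that slows the closing of AMPA receptors, *Gria1* and *Gria2* encode the main AMPA receptor subunits of pyramidal cells, *Grin1* the subunit that every NMDA receptor contains, and *Cacng8* the TARP most typical of hippocampus. The ranges of *Cnih2*, *Gria1* and *Gria2* over the control libraries did not meet, and neither did those of *Gria2*, *Grin1* and *Cacng8*. In all, 10 members were above 100 TPM, 22 lay from 10 to 100 TPM and 9 were under 10 TPM. The lowest were *Grm6* (0.04 and 0 TPM), a receptor known from retinal bipolar cells, *Grin3b* (0.25 and 0.26 TPM) and *Shisa8* (1.07 and 0.81 TPM).

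Most members were found in several cell types of control nuclei, with peaks that differed within each family. Nuclei carry the cell types that the authors assigned, and the values here are UMIs of a gene scaled to a common total of UMIs of that type (CPM), given for control replicates 1 and 2 as a description with no test, since the same transcripts served to form the types. The deposited names were checked against marker lists. All 5 oligodendrocyte, 5 microglia, 4 OPC (oligodendrocyte precursor) and 18 choroid plexus markers, 4 of 5 markers of inhibitory neurons, of astrocytes and of CA2, 4 of 6 of CA1, 3 of 5 of CA3, 5 of 6 of mossy cells and 5 of 8 of DGCs were highest in the type they name, whereas none of the 4 general markers of excitatory neurons was highest in the cells called excitatory neurons, and 5 of 6 meningeal markers were highest among the inhibitory neurons. CA1 pyramidal cells were the highest type for 9 members, mossy cells for 8, OPC for 5, DGCs for 4, CA3 and inhibitory neurons for 3 each, CA2, other excitatory neurons, astrocytes and oligodendrocytes for 2 each, and microglia for 0. For 13 of the 40 members the highest type exceeded the next by more than 2 times.

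**Figure D1:**
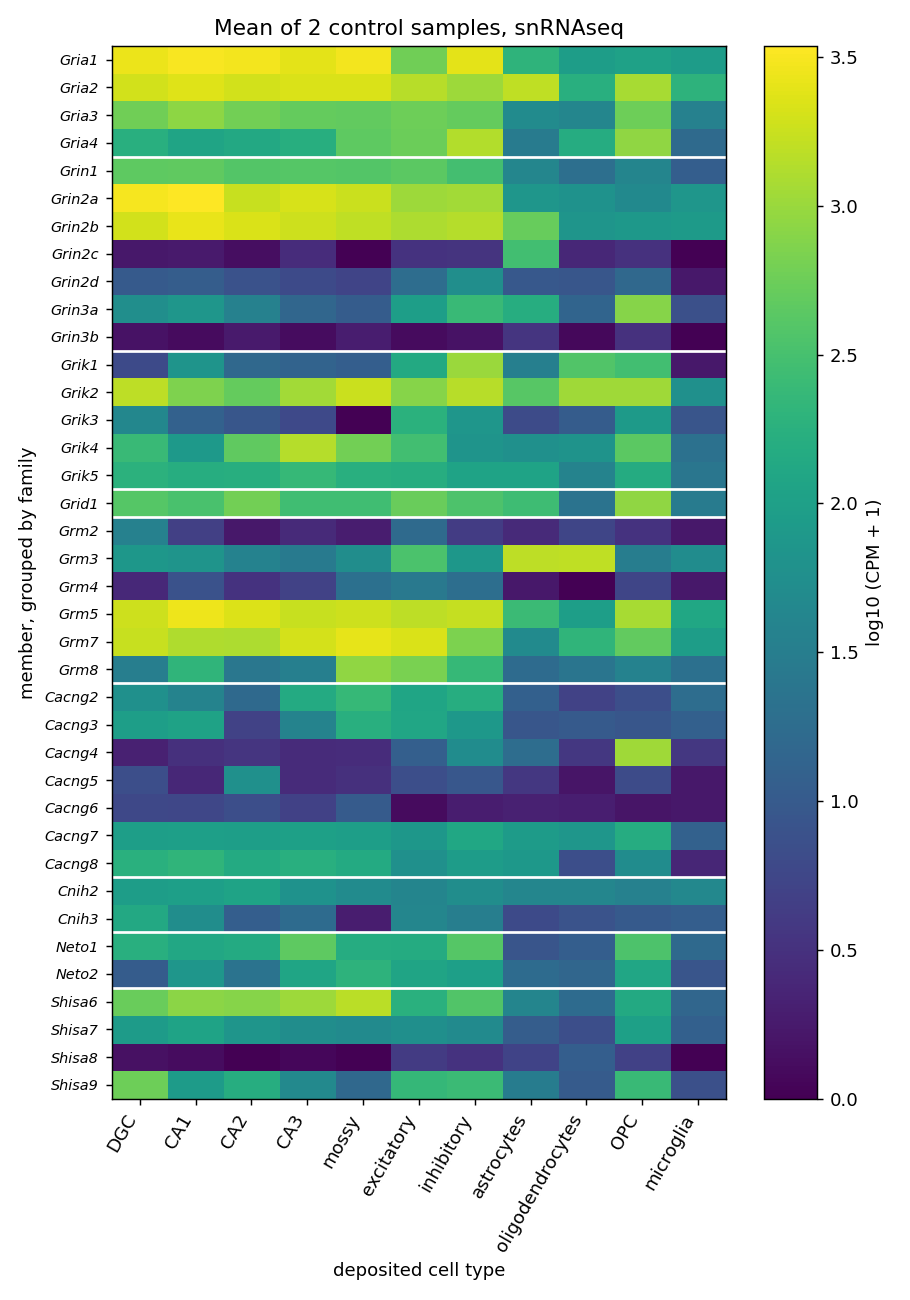
Level of 38 members in 11 deposited cell types, as log10 of the mean CPM of 2 control samples plus 1, with members grouped by family (white lines) and 1 column per cell type. *Grin2c* stands out in astrocytes, *Cacng4* in OPC and *Cacng5* in CA2, whereas AMPA and NMDA receptor subunits such as *Gria1* and *Grin2b* are bright across all neuronal types.

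Among the NMDA receptor genes, *Grin2c*, which encodes a subunit known from cerebellum and astrocytes, was at 303 and 284 CPM in astrocytes, and its next type, inhibitory neurons, was 122 times lower. *Grin2d*, a subunit of interneurons, was at 52.5 and 58.3 CPM in inhibitory neurons. *Grin3a*, whose product lowers the calcium entry of NMDA receptors, was at 838 and 705 CPM in OPC and at 276 and 221 CPM in the next type, inhibitory neurons.

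The kainate receptor genes were divided among cell types. *Grik4*, which encodes a high-affinity subunit, was at 1264 and 1472 CPM in CA3 and 589 and 636 CPM in mossy cells. *Grik1* was at 1054 and 968 CPM in inhibitory neurons, where cluster 18 reached 2742 and 2209 CPM, and at 334 and 421 CPM in oligodendrocytes. *Grik3* was at 138 and 220 CPM in excitatory neurons other than those of the CA fields and dentate gyrus. *Grik2*, the most widely used kainate receptor subunit, was at 2008 and 1633 CPM in mossy cells and at 1751 and 1324 CPM in DGCs, ranges that overlap.

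Of the remaining members above that ratio, *Cacng4*, a TARP, was at 1056 and 1087 CPM in OPC and at 45.1 and 58.9 CPM in inhibitory neurons, and *Cacng5*, a TARP of another subgroup, was at 64.8 and 52.5 CPM in CA2 and at 7.68 and 8.78 CPM in inhibitory neurons. *Shisa8* was at 11.2 and 9.81 CPM in oligodendrocytes. *Grm3*, a metabotropic receptor of glia, did not pass the ratio because oligodendrocytes (1657 and 1518 CPM) and astrocytes (1597 and 1439 CPM) held it at overlapping levels.

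Among the members for which DGCs were the highest type were *Cnih3*, *Grm2* and *Shisa9*. *Cnih3*, the second cornichon of AMPA receptors, was at 122 and 152 CPM in DGCs and at 43.4 and 63.7 CPM in the next type, CA1. *Grm2*, an inhibitory autoreceptor of mossy fibre terminals, was at 33.1 and 37.3 CPM in DGCs and at 12.9 and 18.4 CPM in excitatory neurons, where cluster 7 held 19.1 and 38.0 CPM. *Shisa9*, also called CKAMP44, which modulates the desensitization of AMPA receptors in DGCs, was at 593 and 530 CPM in DGCs and at 261 and 247 CPM in inhibitory neurons.

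The bulk comparison asked which of these transcripts changed in the whole hippocampus of the mutant. In the bulk libraries 5 members fell and none rose at an FDR below 0.05, among 40 tested (*Grm6*, with 6 counts over the 4 libraries, was left out as too low). They included *Grm2*, *Shisa9*, *Grik2* and *Cnih3*. Of all 20687 genes tested, 1.01% were lower and 0.198% were higher by the same rule. In bulk tissue, fewer cells of a type and less RNA per cell cannot be told apart. No AMPA, NMDA or delta receptor subunit, TARP or Neto gene passed the test. The median log2 fold change was -0.05 over the members tested and 0.01 over all genes, and 26 of the 40 members differed by less than 1.2-fold. Without adjustment, 9 members were lower and 3 were higher at p below 0.05, as were 9.94% and 8.86% of all genes. A total of 15 members had both mutant libraries below both controls and 7 had both above, against 25.4% and 25.8% of all genes.

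**Figure D2:**
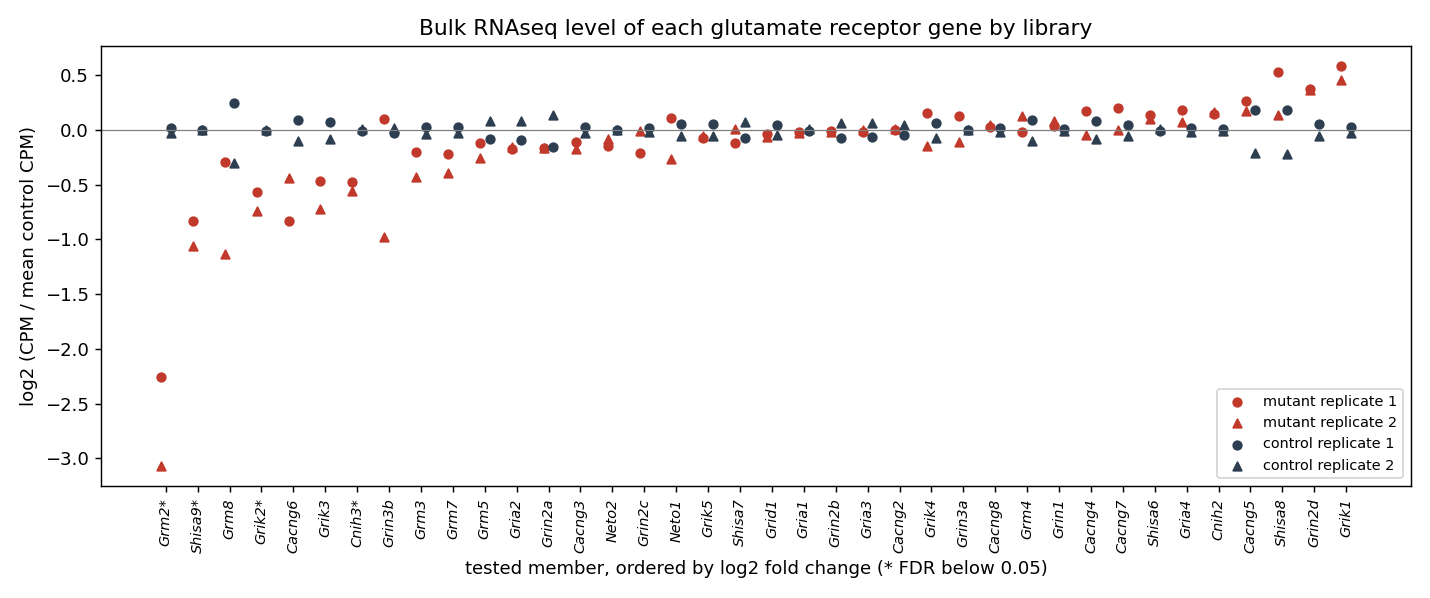
Bulk level of 38 tested members in each library, as log2 of its CPM over the mean of the 2 control libraries, with members ordered by fitted log2 fold change (red, mutant, and dark, control; circles, replicate 1, and triangles, replicate 2; asterisk, FDR below 0.05). *Grm2* lies far below the rest and most members lie close to 0.

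In the comparisons of genotypes CPM are scaled by TMM, unlike the levels by cell type above. *Grm2* was at 11.0 and 6.26 CPM in mutant replicates 1 and 2 and at 53.3 and 51.6 CPM in control replicates 1 and 2. Both mutant libraries were far below both controls, and replicate 2 was the lower of the mutants. The log2 fold change was -2.61 (standard error 0.264, edgeR FDR 0.0275), with -2.28 and -3.04 within replicate numbers 1 and 2, and *Grm2* was the only member past the study's FC of 3. In mm10 the gene occupies positions 106643095 to 106656082 of chromosome 9, minus strand, where the antisense gene *Gm28111* overlaps it on the other strand.

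*Shisa9* was at 34.2 and 29.1 CPM in the mutants and at 60.6 and 61.0 CPM in the controls. The control libraries were nearly equal and the mutants were both lower, with a log2 fold change of -0.94 (standard error 0.088, edgeR FDR 0.0244) and -0.83 and -1.07 within replicate numbers. It lies on chromosome 16 from 11984113 to 12270902 on the plus strand.

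*Grik2*, the only kainate receptor gene called in bulk, was at 47.6 and 42.1 CPM in the mutants and at 70.2 and 70.6 CPM in the controls. Again the 2 groups did not overlap, and the log2 fold change was -0.65 (standard error 0.072, edgeR FDR 0.0328), with -0.56 and -0.75 within replicate numbers. It was not called with the replicate number as a block (edgeR FDR 0.0599). It occupies chromosome 10 from 49094833 to 49788766 on the minus strand.

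*Cnih3* was at 34.8 and 32.8 CPM in the mutants and at 48.0 and 48.6 CPM in the controls, a log2 fold change of -0.52 (standard error 0.062, edgeR FDR 0.0398) and of -0.47 and -0.57 within replicate numbers, and it was not called with the block either (edgeR FDR 0.0674). The mutant libraries lay close together and apart from the controls. *Cnih3* is on chromosome 1 from 181352628 to 181460641 (plus strand).

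The number of calls in bulk changed with the block and with the libraries used. Replicate number goes with the split by *Xist* and *Ddx3y*. With it as a block *Grm2* (edgeR FDR 0.0469) and *Shisa9* (edgeR FDR 0.0472) were the only members called. In that fit 0.396% of all genes were lower and 0.058% were higher. Without control replicate 1 or without control replicate 2 no gene of any kind was called, and so no member, although the log2 fold change of *Grm2* stayed between -3.07 and -2.26 and that of *Shisa9* between -1.06 and -0.84 with each library left out in turn. Without mutant replicate 2, the library rich in choroid plexus transcripts, the same number, 5, was called lower, and without mutant replicate 1 it was 8, where the share of all genes called lower was 2.36% and 4.26%. The part of choroid plexus RNA in these results was not otherwise tested.

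Other members did not pass the test, some with differences as large as those of called members. On the low side *Grm8*, an autoreceptor of glutamate terminals, differed by -0.65 (edgeR FDR 0.382, groups overlapping) and *Cacng6*, a TARP-related gene, by -0.62 (edgeR FDR 0.236). *Grik3*, a kainate receptor subunit gene, was at 32.8 and 27.5 CPM in the mutants and at 47.9 and 42.97 CPM in the controls, both mutants below both controls (-0.59, standard error 0.109, edgeR FDR 0.0873). On the high side were *Grik1* at 0.52, *Grin2d* at 0.37, *Shisa8* at 0.34, *Cacng5* at 0.22 and *Cnih2* at 0.16, with edgeR FDRs of 0.112, 0.128, 0.611, 0.483 and 0.190. For *Grik1*, *Grin2d* and *Cnih2* both mutant libraries were above both controls. *Grik1* and *Grin2d* were called in 2 and 1 of 9 alternative fits. With a library left out *Grm8* ranged from -1.13 to -0.29, *Shisa8* from 0.14 to 0.56 and *Cacng5* from 0.04 to 0.42. DESeq2 called 7 members lower and 2 higher, with 5.21% and 3.54% of its 17584 genes, and all 5 called by edgeR were among them. *Kdelr1* and *Yif1a* are annotated over *Grin2d* and *Cnih2* on the other strand, and the strand setting of the counting is not given in the sources used here.

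The 5 members that fell in bulk tissue were also the 5 whose transcripts were most concentrated in DGCs. Among 38 members with at least 10 CPM in their highest cell type, the log2 ratio of the level in DGC nuclei to the level in all other control nuclei was 3.07 for *Grm2*, 2.28 for *Shisa9*, 2.02 for *Cnih3* and 0.77 for *Grik2*, the lowest of the 5. The next, *Grin2a* at 0.53, encodes the adult NMDA receptor subunit and differed by -0.16 in bulk. The limit that separates these members, a ratio of 1.71, was set after the values were seen, so it supports no test. Of all genes measured in the same way, 760 were at or above that ratio, of which 20.5% were called lower and 91.3% had a negative log2 fold change in bulk. Below it there were 11884 genes, with 0.269% called lower. Across the 38 members the bulk log2 fold change and the log2 ratio had a Pearson r of -0.50 and a Spearman rho of -0.43, given as a description because the points share libraries.

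**Figure D3:**
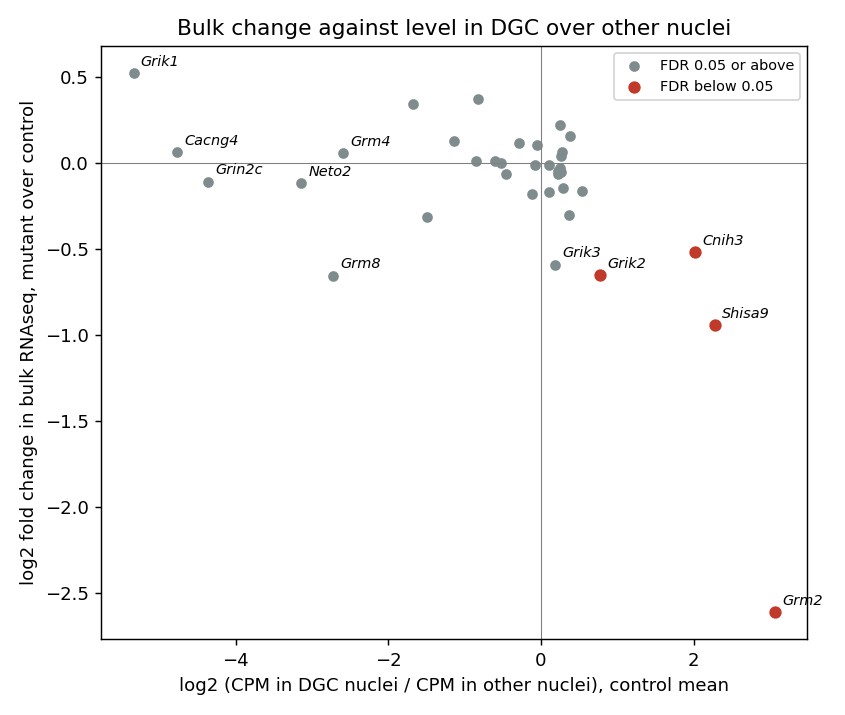
Bulk log2 fold change (mutant over control, vertical axis) against the log2 ratio of CPM in DGC nuclei to CPM in all other nuclei of the controls (horizontal axis), 1 point for each of 36 members. The 4 members shown with an FDR below 0.05 (red) are the 4 farthest to the right, from 0.77 for *Grik2* to 3.07 for *Grm2*.

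For 3 of these members the sequence before the transcription start is held by the RefSeq promoter table (build GRCm38.p6), and it is shown because they fell together and share their highest or next highest expression in DGCs. The table has 26 of the 41 members, and *Shisa9* has no entry. Each line is the 250 bases before the annotated start on the strand of the gene, 5′ to 3′, in lower case, with any match to 4 short motifs in capitals. The motifs were the TCF/LEF core CTTTGA, the site of the transcription factors through which Wnts act, the cyclic AMP response element TGACGTCA, the TATA box TATAAA and the REST motif TTCAGCACC, searched on both strands.
Grm2, chr9:106656110-106656359, minus strand: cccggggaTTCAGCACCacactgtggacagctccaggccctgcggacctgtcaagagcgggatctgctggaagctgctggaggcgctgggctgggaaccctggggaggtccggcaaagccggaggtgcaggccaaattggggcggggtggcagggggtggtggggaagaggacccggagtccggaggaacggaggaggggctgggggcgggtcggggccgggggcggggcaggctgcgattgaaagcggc
Cnih3, chr1:181352378-181352627, plus strand: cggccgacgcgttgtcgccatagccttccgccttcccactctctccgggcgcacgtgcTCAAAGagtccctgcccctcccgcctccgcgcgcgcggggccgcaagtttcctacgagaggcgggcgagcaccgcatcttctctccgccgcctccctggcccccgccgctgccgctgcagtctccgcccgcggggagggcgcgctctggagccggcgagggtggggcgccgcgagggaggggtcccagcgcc
Grik2, chr10:49788755-49789004, minus strand: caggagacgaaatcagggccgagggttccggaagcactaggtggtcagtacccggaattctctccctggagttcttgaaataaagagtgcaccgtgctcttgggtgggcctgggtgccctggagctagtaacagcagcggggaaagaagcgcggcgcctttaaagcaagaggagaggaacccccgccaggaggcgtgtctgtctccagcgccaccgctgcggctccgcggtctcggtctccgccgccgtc

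The window of *Grm2* held a REST motif from 242 to 234 bases before the start, letters found in 0.301% of 32851 such windows of all genes. The window of *Cnih3* held a TCF/LEF core on the opposite strand from 192 to 187 bases before the start, letters found in 13.8% of all windows, and that of *Grik2* held none of the 4. Among the 26 members with an entry, 2 had the TCF/LEF core, 1 a TATA box, 1 the REST motif and 0 the cyclic AMP response element, against 13.8%, 12.4%, 0.301% and 1.55% of all windows. A match is a description of letters and not a binding site.

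The nuclei allow the same members to be compared within a cell type, with UMIs summed over the nuclei of a type in each mouse and CPM again scaled by TMM. There were 90 and 463 DGC nuclei in mutant replicates 1 and 2, against 2336 and 2007 in control replicates 1 and 2. In DGCs, 1 of 37 members tested fell and 4 rose at an FDR below 0.05, where 0.727% of 15003 genes were lower and 1.04% were higher. The member that fell was *Cnih2*, and those that rose included *Gria4*, *Grin3a* and *Grid1*. Both mutants were below both controls for 5 members and above for 14, against 26.1% and 22.2% of all genes, and at an unadjusted p below 0.05 there were 2 lower and 11 higher, against 8.42% and 7.6% of all genes. In the fit without a block none of the 5 members that fell in bulk was called in DGC nuclei. With the replicate block 2 members were lower and 10 higher in DGCs, where 5.05% and 4.54% of all genes were. With no filter it was 2 and 8, where 2.12% and 1.97% were. *Grm2* was at 31.1 and 25.6 CPM in mutant DGCs and 33.1 and 37.5 CPM in control DGCs, a difference of -0.40 on the log2 scale (edgeR FDR 0.416), and *Shisa9* was at 758 and 800 CPM in mutant and 592 and 533 CPM in control DGCs (0.47, edgeR FDR 0.146).

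*Cnih2* was at 26.3 and 40.1 CPM in the mutants and at 101 and 86.1 CPM in the controls, from 11 and 135 UMIs in the mutants and 1152 and 1393 in the controls. The groups were well apart, with a log2 fold change of -1.35 (standard error 0.219, edgeR FDR 0.0214). The gene spans only 5.65 kb on chromosome 19, from 5092868 to 5098521 on the minus strand. *Gria4*, the AMPA receptor subunit of fast interneurons, was at 383 and 319 CPM in the mutants and at 188 and 147 CPM in the controls, a log2 fold change of 1.05 (standard error 0.183, edgeR FDR 0.0269). It lies on chromosome 9 from 4417896 to 4796234 (minus strand).

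*Grid1*, which encodes a delta receptor, was at 660 and 643 CPM in mutant DGCs and at 398 and 414 CPM in control DGCs (0.68, standard error 0.142, edgeR FDR 0.0475). *Grin3a* was at 120 and 100 CPM in the mutants and at 61.3 and 50.3 CPM in the controls (0.94, standard error 0.192, edgeR FDR 0.0449). For both genes the mutants were above the controls without overlap. Over the cell types where each was tested, *Grid1* was higher in 11 of 11, *Gria4* in 10 of 11 and *Grin3a* in 8 of 10. *Grid1* lies on chromosome 14 from 34820108 to 35583379 (plus strand) and *Grin3a* on chromosome 4 from 49661611 to 49845744 (minus strand).

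**Figure D4:**
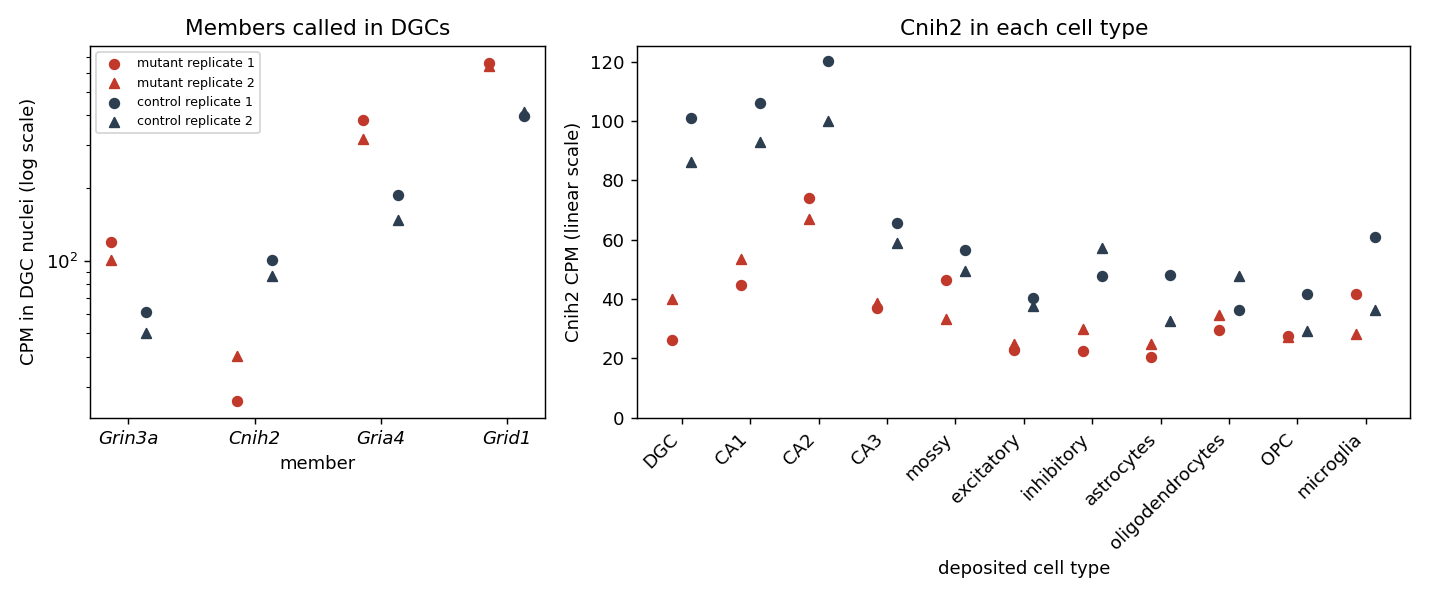
Left, CPM in DGC nuclei of 4 members called there, on a log scale, and right, CPM of *Cnih2* in 11 cell types, on a linear scale from 0, with 1 point per mouse (red, mutant, and dark, control; circles, replicate 1, and triangles, replicate 2). The mutant points of *Cnih2* lie below both control points in 10 of 11 types.

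Without mutant replicate 1 or without mutant replicate 2, no member was called in DGCs and hardly any gene was (1 lower and 15 higher of 16530, and 0 of 16368), while the log2 fold change of *Cnih2* stayed between -1.86 and -1.22 and that of *Gria4* between 0.92 and 1.26. Other members of large difference were not called in the edgeR fit with all libraries, the filter and no block. They were *Grm4*, a presynaptic metabotropic receptor, at 1.96 (2.39 and 6.83 CPM in the mutants, 1.67 and 1.42 CPM in the controls), *Cacng4* at 1.34 with overlapping groups, *Grik1* at 1.34 and, on the low side, *Grm3* at -0.74. With a library left out the values ranged from 0.61 to 2.13 for *Grm4*, 0.79 to 1.92 for *Grik1* and -1.03 to -0.30 for *Grm3*. Each of these was called in some alternative fits. Genes of other cell types were low in DGC nuclei but moved with genotype in part: 5 markers of inhibitory neurons summed to 208 and 154 CPM in mutant DGCs and to 113 and 113 CPM in control DGCs, with none called, *Gad1* the most abundant and a median log2 fold change of -0.12 (3 of 5 lower), whereas 4 OPC markers summed to 2.39 and 5.35 CPM and to 3.86 and 5.07 CPM. The 8 DGC markers summed to 1808 and 1659 CPM and to 2404 and 2143 CPM, with 3 of 8 called lower, and the 5 CA3 markers to 462 and 482 CPM and to 415 and 334 CPM, with *Spock1* called higher. The 4 general markers of excitatory neurons were all lower in mutant DGCs (512 and 564 CPM in sum, against 962 and 1016 CPM in the controls; median log2 fold change -0.66), with *Nrgn*, a calmodulin-binding gene and the most abundant of them, called (-1.53, edgeR FDR 0.00459). Like *Cnih2*, their sum was lower in both mutants than in both controls in 10 of 11 types. The part of these differences and of RNA from other cells in the results was not tested.

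UMIs of *Trhr*, known as a marker of ventral DGCs, were found in more of the DGC nuclei of the mutants. Nuclei with a UMI of *Trhr* and none of *Lct*, known as a marker of dorsal DGCs, were 20.0% (exact 95% binomial interval 12.3% to 29.8%) and 29.8% (25.7% to 34.2%) of mutant DGC nuclei and 2.61% (2.00% to 3.34%) and 4.09% (3.26% to 5.05%) of control DGC nuclei, where the intervals cover counting error only. The median DGC nucleus held 4242 and 7126 UMIs in the mutants and 4628 and 7688 in the controls. As a background, the same share in CA1 nuclei was 1.03% and 2.05% in the mutants and 0.829% and 1.55% in the controls, with medians of 5270 and 9098 and of 8215 and 12164 UMIs. Every nucleus was also thinned to 2000 UMIs (5 and 1 mutant and 9 and 7 control DGC nuclei were shallower and left out). The shares were then 8.24% and 11.3% in mutant and 1.03% and 1.45% in control DGCs. In CA1 they were 0.397% and 0.411% and 0.249% and 0.232%. In mossy nuclei they were 7.41% and 5.62% in the mutants and 2.63% and 0% in the controls. Nuclei with *Lct* alone were not read as dorsal, since such nuclei were also found in CA1 of both genotypes. Their share in mutant DGCs (4.44% and 4.10%) overlapped that in CA1 of the same mice (3.75% and 7.58%). In control DGCs it was 11.0% and 17.5%, against 8.87% and 11.7% in control CA1, whose nuclei held more UMIs. After thinning it was 4.73% and 5.2% in control DGCs, above the 2.57% and 2.01% in control CA1. In the mutants the thinned shares of DGCs and CA1 still overlapped. The next values are restricted to nuclei with *Trhr* alone, a selection made after the values were seen. The mutants stood higher than the controls by 0.52 for *Grid1*, 0.52 for *Gria4* and 1.37 for *Grin3a* on the log2 scale. *Cnih2* was lower, with 0 and 36 UMIs in the mutants and 41 and 62 in the controls. With 0 UMIs in 1 mutant library, no size is given for that difference. These values rest on 18 and 138 mutant nuclei and 61 and 82 control nuclei, with no test. The part of background UMIs of *Trhr* in these nuclei was not tested.

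Across the other cell types *Cnih2* kept its direction. Its log2 fold change was negative in all 11 types, from -1.35 in DGCs to -0.33 in OPC, and both mutants were below both controls in 10 of them. In the fits without a block that used all libraries and the filter, edgeR called it in DGCs alone. With the block it was called in CA1 (edgeR FDR 0.00238), CA3 (0.00474), excitatory neurons (0.0181) and inhibitory neurons (0.00104) too, and by DESeq2 in CA1 (FDR 0.00148) and inhibitory neurons (FDR 0.0226). Both mutants were below both controls for 26.1% of all genes tested in DGCs, 21% in CA1, 20.8% in CA2, 21.8% in CA3, 19.6% in mossy cells, 20.4% in excitatory neurons, 21.9% in inhibitory neurons, 21.3% in astrocytes, 19.9% in oligodendrocytes, 19.9% in OPC and 21.7% in microglia. In CA1 the values were 44.9 and 53.4 CPM in the mutants and 106 and 92.9 CPM in the controls (-1.01, edgeR FDR 0.421), and over all nuclei 33.4 and 39.0 CPM and 84.9 and 72.6 CPM (-1.12, edgeR FDR 0.161). The same transcript was not lower in bulk tissue, at 541 and 578 TPM in the mutants and 534 and 529 TPM in the controls. The types of a mouse come from 1 library and are not independent of each other.

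**Figure D5:**
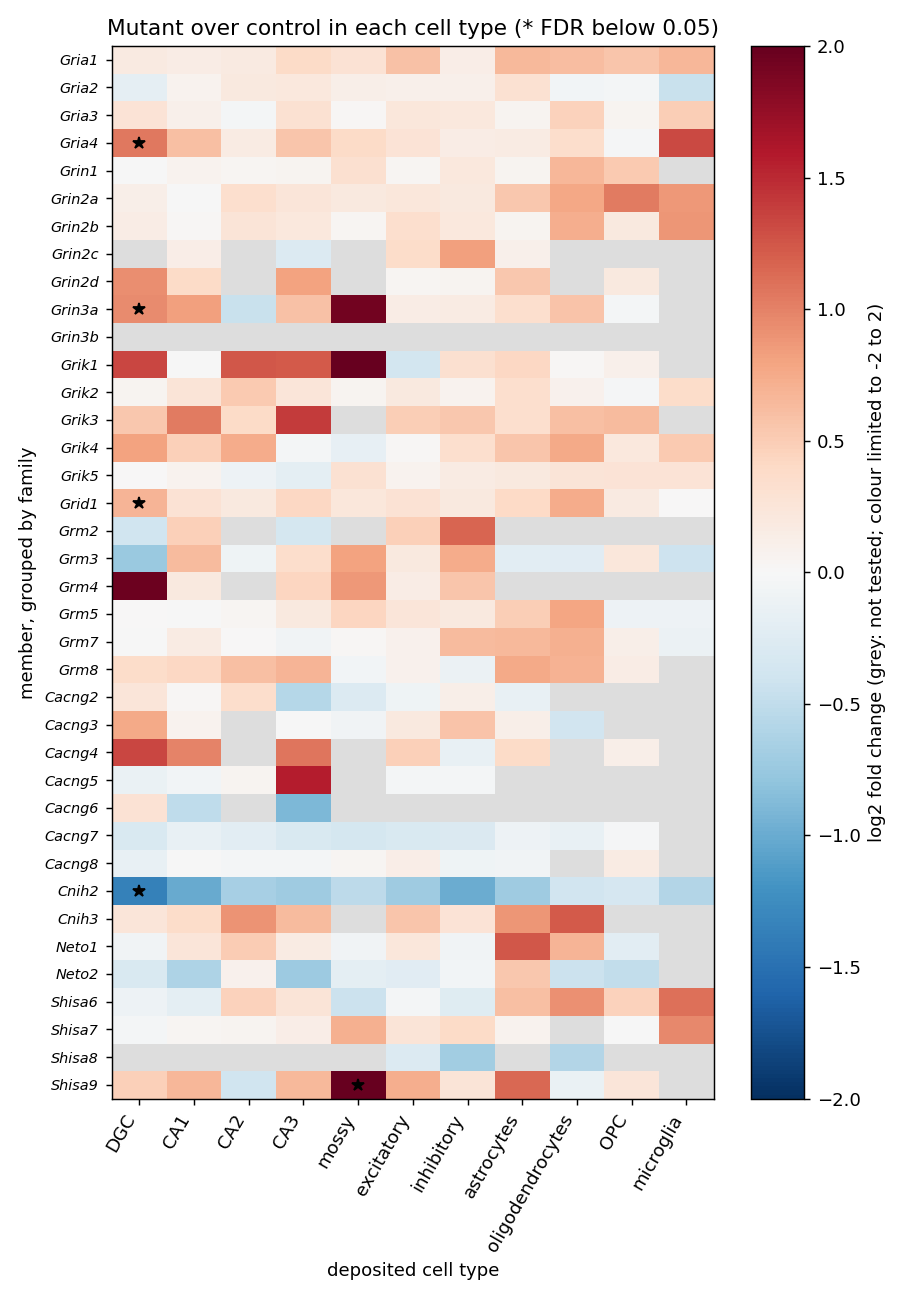
Log2 fold change (mutant over control) of 38 members in 11 cell types, with red for higher and blue for lower in the mutant, grey where a member was not tested, colour limited to -2 to 2 and an asterisk at an FDR below 0.05. The row of *Cnih2* is blue throughout and asterisks stand in the DGC column and at *Shisa9* in mossy cells.

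CA3 pyramidal cells, the targets of the mossy fibres, had 365 and 1085 nuclei in the mutants and 467 and 558 in the controls. No member of 38 tested was called there in the edgeR fit without a block, nor was any other gene, so 0% is the background in either direction. The calls in CA3 changed with the fit. With the replicate block 3 members were lower and 9 higher, where 3.84% and 4.28% of all genes were, and without control replicate 2 it was 2 and 4, where 2.43% and 3.71% were. At an unadjusted p below 0.05, 3 members were lower and 12 higher, against 6.14% and 6.33% of all genes, and DESeq2 called 0 lower and 1 higher, with 0.686% and 0.451% of its 11521 genes. Both mutants were below both controls for 6 members and above for 18, against 21.8% and 22.4% of all genes. *Grik1* was at 28.01 and 29.8 CPM in the mutants and at 12.95 and 11.9 CPM in the controls (1.23, standard error 0.204, edgeR FDR 0.154), *Grik3* at 14.01 and 13.5 CPM and 3.39 and 6.54 CPM (1.40, edgeR FDR 0.186) and *Cacng5* at 5.60 and 4.73 CPM and 1.99 and 1.48 CPM (1.57, edgeR FDR 0.207). *Grik1* was called higher in 6 of 9 alternative fits, among them DESeq2 (FDR 0.0236) and the block (edgeR FDR 5.53e-04), with a log2 fold change of 1.11 to 1.26 over all of them. *Grik3* was called in 3 of 9 (1.04 to 2.01) and *Cacng5* in 2 of 9 (1.33 to 1.74). All 3 were low in CA3 beside their highest types. The unscaled control means there were 1011 CPM for *Grik1* (inhibitory neurons), 179 CPM for *Grik3* (excitatory neurons) and 58.6 CPM for *Cacng5* (CA2). In CA3 nuclei, inhibitory neuron markers summed to 114 and 157 CPM in the mutants and 123 and 97.6 CPM in the controls. The part of RNA from other cells in these values was not tested. The kainate receptor genes most abundant in CA3 were not called, *Grik4* at -0.03 and *Grik2* at 0.25, each with overlapping groups. On the low side *Cacng6* differed by -0.90, with a range of -3.42 to -0.40 when a library was left out. *Neto2*, a kainate receptor auxiliary gene, differed by -0.73 (73.2 and 71.5 CPM against 140 and 100 CPM) and *Cnih2* by -0.72. *Neto2* was called lower in 3 of 9 alternative fits (-0.96 to -0.49).

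In mossy cells, the excitatory neurons of the dentate hilus, *Shisa9* rose, at 110 and 156 CPM in the mutants and 2.58 and 28.5 CPM in the controls (log2 fold change 3.01, standard error 0.492, edgeR FDR 0.0185), from 19 and 136 UMIs against 1 and 15. It was the only member of 30 tested to be called, where 0.453% of 7289 genes were higher and 0.151% lower. Mossy nuclei numbered 27 and 89 in the mutants and 38 and 32 in the controls, and *Shisa9* was no longer called without mutant replicate 2, by DESeq2 or without the 5% of nuclei with most UMIs. Its log2 fold change ranged from 2.30 to 5.62 with a library left out. DGC markers in the same nuclei summed to 116 and 105 CPM in the mutants and 18.0 and 58.9 CPM in the controls. Oligodendrocyte markers summed to 243 and 250 CPM and to 64.4 and 66.5 CPM, with 1 marker of each list called higher. The DGC list is not particular to DGCs, since in control nuclei it summed to 4192 CPM in oligodendrocytes and 2270 CPM in DGCs. Only 2 of its 8 markers were tested in mossy cells. The 6 mossy cell markers summed to 307 and 470 CPM in the mutants and 531 and 551 CPM in the controls, with none of the 5 tested called and a median log2 fold change of -0.43, and 1 of 4 OPC markers was called lower. Their part in the result was not tested. Across the 10 types where *Shisa9* was tested, mossy cells among them, it was higher in 8 and lower in 2.

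Elsewhere no member was called by edgeR in the fit without a block, that is in CA1 (38 tested), CA2 (31), excitatory neurons (38), inhibitory neurons (38), astrocytes (34), oligodendrocytes (29), OPC (29), microglia (17), over all nuclei (40) or over all nuclei other than DGCs (40), where few genes of any kind were called. The share of genes called lower and higher was 0% and 0.00992% in CA2, 0.0129% and 0.00643% in inhibitory neurons, 0.261% and 0.165% in astrocytes, 0.0892% and 0% in oligodendrocytes, 0.121% and 0.011% in OPC, 0.014% and 0.0421% in microglia and 0% in both directions elsewhere. At an unadjusted p below 0.05 these comparisons had 0 to 2 members lower and 1 to 8 higher, where 1.88% to 8.49% of all genes were lower and 1.32% to 6.3% higher. With the block, the types and groups of nuclei had 0 to 2 members called lower and 0 to 6 higher, where 0% to 5.43% and 0.0562% to 3.65% of all genes were. DESeq2 called 1 member lower in CA1 and 1 in inhibitory neurons, 1 lower and 3 higher over all nuclei, 1 lower and 2 higher over nuclei other than DGCs, and none in the remaining types. Of all genes it called 0.407% lower in CA1 and 0.584% in inhibitory neurons, 3.23% lower and 1.59% higher over all nuclei and 0.709% lower and 0.275% higher over nuclei other than DGCs. The nuclei called inhibitory neurons include clusters with few transcripts of such neurons. Cluster 15 held 143 and 102 nuclei in the mutants but 15 and 1 in the controls, with *Gad1* at 9.32 CPM or less against 186 to 665 CPM in clusters 5, 12 and 18, and cluster 14, with 64 and 250 against 82 and 123 nuclei, held the meningeal markers (1442 to 2481 CPM in sum). Without these and cluster 19 of the excitatory neurons, no member was called in inhibitory or excitatory neurons either, where 0.0136% and 0% of 14668 genes were called lower and higher in inhibitory neurons. In each of the 11 types the median log2 fold change of the members tested was above that of all genes, from 0.07 in mossy cells to 0.49 in microglia, against -0.04 to 0.01. The log2 fold change and the log2 span of the gene had a Pearson r across members of 0.11 in mossy cells to 0.51 in oligodendrocytes, a description over members that share their libraries and their intronic reads.

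The difference between cell types in the effect of genotype was tested directly for DGCs against CA1, with each mouse as a block. Here 1 of 38 members was lower and 4 were higher, where 1.01% and 1.51% of 16987 genes were. *Grm3* fell in DGCs relative to CA1 by 1.21 on the log2 scale (edgeR FDR 5.96e-06), with 50.2 and 41.3 CPM in mutant and 91.1 and 54.4 CPM in control DGCs, and 120 and 87.6 CPM in mutant and 69.7 and 64.8 CPM in control CA1 cells. *Cacng3*, a TARP, rose in DGCs relative to CA1 by 0.70 (edgeR FDR 0.00161), with 151 and 169 CPM in mutant and 94.7 and 95.8 CPM in control DGCs, and 123 and 110 CPM and 119 and 102 CPM in CA1 cells. *Grik1* and *Grm4* also rose relative to CA1. Without mutant replicate 2 none of the 5 was called. *Cnih2*, *Gria4*, *Grin3a* and *Grid1*, called within DGCs, were not called against CA1 with all libraries (edgeR FDRs 0.312, 0.106, 0.758 and 0.239). For CA3 against CA1, 0 of 38 members were called, where 0.107% and 0.125% of 16769 genes were called lower and higher. At an unadjusted p below 0.05, 4 members were lower and 8 higher, against 3.36% and 5.36% of all genes.

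The makeup of the nuclei differed between genotypes, and its share in the values of the members was computed. DGCs gave 1.58% and 4.54% of the UMIs of the 11 types in the mutants and 29.2% and 26.5% in the controls. With every type held at its control level and only the shares of the types taken from each library, the log2 difference was -0.99 for *Grm2*, -0.66 for *Cnih3*, -0.65 for *Shisa9*, -0.20 for *Grik2* and -0.16 for *Cnih2*. With the shares held at their control mean and the levels taken from each library, the differences were -0.07 for *Grm2*, 0.25 for *Cnih3*, 0.48 for *Shisa9*, 0.13 for *Grik2* and -1.07 for *Cnih2*. The values expected from the shares alone and the bulk log2 fold changes had a Pearson r of 0.60 over 40 members, and 0.44 without *Grm2*. The differences measured over the nuclei of the 11 types were smaller than in bulk for the 4 members named as lower there, at -0.60 for *Grm2*, -0.29 for *Cnih3*, -0.17 for *Shisa9* and -0.05 for *Grik2*, and -1.09 for *Cnih2*, and the bulk log2 fold changes and those over all nuclei had an r of 0.32 and a Spearman rho of 0.29. These calculations were added after the data were seen, and they rest on nuclei that survived isolation.

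Genes that work with the receptors were counted as lists. The lists were chosen with earlier results of these data known, so the shares of all genes beside them are a description. Of 17 other AMPA receptor partners, 16 were tested in bulk and 2 were lower, against 1.01% of all genes. *Lrrtm4*, a synaptic adhesion gene of DGCs, was at 18.9 and 14.8 CPM in the mutants and 46.1 and 44.6 CPM in the controls (-1.43, standard error 0.129, edgeR FDR 0.0236), and *Gsg1l*, an auxiliary subunit that dampens AMPA receptors, was at 11.6 and 10.0 CPM and at 28.1 and 23.99 CPM (-1.27, standard error 0.128, edgeR FDR 0.0275). *Nptx2*, a neuronal pentraxin that clusters AMPA receptors, was not called at 0.47 (edgeR FDR 0.0873). In DGC nuclei 1 of 16 partners was called, where 0.727% of all genes were lower, namely *Cnih1*, the cornichon outside the members, at 26.3 and 21.7 CPM in the mutants and 51.1 and 50.5 CPM in the controls (-1.17, edgeR FDR 0.0309). None of 23 postsynaptic scaffold genes, 9 synaptic kinase genes, 7 delta receptor ligand genes or 14 genes of metabotropic receptor signalling was called in bulk, with medians of 0.01, -0.04, 0.04 and 0.04, nor were any in DGCs, CA1 or CA3. The largest differences among them were those of *Tanc1* (-0.38, edgeR FDR 0.0635) and *Shank1* (0.28, edgeR FDR 0.0882) for the scaffolds, *Prkacb* (-0.45, edgeR FDR 0.0834) for the kinases, *Cbln3* (-0.86, edgeR FDR 0.367) and *Cbln4* (0.57, edgeR FDR 0.144) for the ligands and *Trpc5* (-0.55, edgeR FDR 0.300) for metabotropic signalling.

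*Wls* itself was at 3.67 and 6.86 CPM in the mutant and 13.2 and 13.03 CPM in the control bulk libraries (-1.31, edgeR FDR 0.117). In nuclei it was lower in astrocytes, at 2.91 and 2.08 CPM in the mutants and 49.9 and 39.6 CPM in the controls (-4.28, edgeR FDR 2.27e-04), in oligodendrocytes, at 0 and 5.06 CPM and 76.9 and 89.03 CPM (-4.14, edgeR FDR 6.87e-05), and in OPC, at 0 and 7.38 CPM and 48.1 and 65.1 CPM (-3.16, edgeR FDR 0.00634). In CA1, excitatory neurons, inhibitory neurons and microglia both mutants were below both controls without a call (-1.82, -2.17, -1.74 and -1.11, edgeR FDRs 0.421, 0.216, 0.0717 and 0.705), whereas in DGCs it was at 4.78 and 5.64 CPM and at 3.33 and 4.45 CPM (0.49, edgeR FDR 0.622).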

How the data were processed

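Bulk RNAseq and snRNAseq were analysed from 2 mutant and 2 control mice each, every library being 1 mouse. For the bulk libraries the authors deposited expected counts and TPM per gene from RSEM 1.3.0 with Bowtie2 2.2.9 (mm10), which divides a read with several possible genes between these, together with the effective length of each gene. A deposited matrix holds the same counts as a signal divided by 1 size factor per library. For nuclei the authors deposited UMI counts per gene and nucleus from Cell Ranger 3.1.0, with a cell type for each nucleus. The strand setting of the bulk counting is not given in the sources used here, and how doublets were removed was not tested. No column of the authors' own comparisons was used.

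Expected counts were rounded, and UMIs were summed per mouse over the nuclei of each of 11 cell types (minimum 10 nuclei per sample), over all nuclei and over all nuclei other than DGCs. Genes were filtered by edgeR's filterByExpr and tested by edgeR's quasi-likelihood test with TMM scaling and Benjamini-Hochberg adjustment over all genes of a comparison (FDR below 0.05). The difference in genotype effect between cell types was fitted with mouse as a block. CPM in comparisons use TMM-scaled totals after the filter, whereas levels by cell type, the makeup calculation and the *Trhr* and *Lct* split use unscaled totals of UMIs. With 2 samples against 2 an exact permutation test cannot go below 0.333, so that p-values rest on the spread shared across genes. The EBSeq and Monocle tests of the study were not run, and edgeR took their place. The scripts were tested on simulated data.

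Alternatives were DESeq2, RLE scaling, no filter, a block by replicate number, each library left out in turn, limma on log2 of the deposited matrix plus 1, the fold thresholds of the study (3 in bulk and 2 in nuclei) and leaving out the 5% of nuclei with most UMIs. Members were chosen by symbol, and the members, marker lists and partner lists were chosen with earlier results of these data known. Named are all members called in any test, the 5 largest falls and rises in bulk, the 3 largest falls and rises in DGCs and CA3, the 5 highest and 3 lowest by TPM, up to 3 members per cell type with a ratio above 2, *Wls*, and up to 4 examples per list. Results of 2 members are not reported here one by one or plotted, although the counts, medians and correlations include them. The composition calculation and the split by *Trhr* and *Lct*, with its thinning to 2000 UMIs, were added after the values were seen. Versions were R 4.3.3, edgeR 4.0.16, limma 3.58.1, DESeq2 1.42.0, Python 3.11.15, numpy 2.4.6, pandas 2.3.3, scipy 1.17.1 and matplotlib 3.10.9.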

Additional observations from a re-analysis of the deposited data

Results flagged for a closer look

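For several members the difference between mutant and control was not the same in DGCs and in CA1 pyramidal cells, by an edgeR test of that difference with mouse as a block. The log2 fold change in DGCs minus that in CA1 was -1.21 for *Grm3*, 0.70 for *Cacng3*, 1.28 for *Grik1* (edgeR FDR 0.0351) and 1.85 for *Grm4* (edgeR FDR 0.0139). *Grik1* and *Grm4* rest on few molecules, with 4 and 50 UMIs of *Grik1* and 1 and 23 UMIs of *Grm4* in mutant DGCs. With a library left out the values ranged from -1.54 to -0.92 for *Grm3*, 0.44 to 0.85 for *Cacng3*, 0.47 to 2.38 for *Grik1* and 0.30 to 2.06 for *Grm4*.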

How the results depend on the processing

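Percentages give the share of all genes called in the same way. Beside the 5 members lower in bulk (1.01%), 2 were lower with the replicate block (0.396%), 0 by limma on the deposited matrix, 1 with the fold threshold of the study added (0.198%) and 0 to 8 with a library left out (0% to 4.26%). No member was higher in bulk by edgeR, against 2 by DESeq2 (3.54%) and 1 with no filter (3.05%). Summed over the 11 cell types, 1 call was lower (0.131%), against 3 by DESeq2 (0.284%), 6 with no filter (0.628%), 10 with the replicate block (2.49%) and 0 to 6 with a library left out (0.18% to 0.776%), and 5 calls were higher (0.161%), against 19 with no filter (0.56%), 44 with the replicate block (2.35%), 2 with the fold threshold (0.134%) and 2 to 15 with a library left out (0.135% to 1.34%). Over all nuclei 0 were lower and 0 higher, against 1 and 3 by DESeq2 and 2 and 6 with the replicate block (5.43% and 3.65%), and over nuclei other than DGCs 0 and 0, against 1 and 2 by DESeq2 and 1 and 2 with the replicate block (2.15% and 1.05%). For DGCs minus CA1, 1 was lower (0 to 1 with a library left out, 0.142% to 0.569%) and 4 were higher (0 to 3, 0.165% to 1.33%). For CA3 minus CA1, 0 were called, against 3 lower and 2 higher with no filter (0.816% and 1.11%) and 0 to 3 lower and 0 to 2 higher with a library left out (0.0234% to 0.53% and 0.0761% to 0.735%). Calls over all genes moved too, with 0 by limma in bulk and, with the replicate block, 758 lower and 681 higher in DGCs (from 109 and 156), 406 and 323 in CA1 and 577 and 644 in CA3 (from 0). *Cacng4* in DGCs ranged from -6.47 without mutant replicate 2 to 2.45 with other libraries left out, against 1.34 with all. The lowest value sets a mutant library with 0 UMIs against the controls (edgeR FDR 0.774). The cause of the other shifts was not tested. Left-out fits leave 1 library in an arm, which is assumed to vary like the other group.

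Replicate numbers were shared by the genotypes, but the labels name no litter, batch or day, although in bulk replicate 2 of both carried *Xist* and little *Ddx3y*. Deviations from the group mean had a correlation between same-numbered samples of 0.02 in bulk, 0.16 in DGCs and 0.04 (microglia) to 0.36 (inhibitory neurons) over the 11 types, which with 2 pairs does not establish pairing. Depth limits the nuclei most in mutant replicate 1, with 90 DGC, 27 mossy and 13 microglial nuclei.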
